A study of Mus musculus with 6 samples.

Results

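The genes described here are those of the cytosolic ribosomal proteins, the proteins of the ribosomes that translate nuclear mRNAs, in astrocytes from mouse brain. They were chosen by name alone, as the protein-coding genes whose symbol begins with Rpl or Rps and a digit or is Rplp0, Rplp1, Rplp2 or Rpsa, with pseudogenes and the S6 kinases (Rps6k) left out. The rule took 85 of the 17193 genes listed, 51 of the large (60S) subunit, 33 of the small (40S) subunit and Rps19bp1, whose product binds ribosomal protein S19 and is not itself part of the ribosome. Ribosomal proteins with other symbols (such as Fau and Rack1) are given separately. Rps4l and Rpl6l were not counted because the annotation types them as pseudogenes, and Rpl10-ps3, Rpl9-ps6 and Rps12-ps3 fell under the pseudogene rule although they are typed as protein coding.

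All 6 libraries came from wild-type C57BL/6 mice aged 3 months, and the astrocytes were taken from dissociated brain with microbeads against ACSA-2, an astrocyte surface antigen. The 3 Mock libraries are from control mice, named saline in the column heads of the study's own table, and the 3 Quinpirole libraries are from mice given quinpirole, an agonist of the dopamine D2 receptor. The dose and duration for these mice, and whether a library is 1 mouse or a pool, were not given in the sources used here, so p-values measure the spread between these libraries. Poly(A) RNA was sequenced in paired-end reads, and the deposited values are FPKM, fragment numbers scaled by transcript length and by library depth. Values of single libraries are given in the order of replicates 1, 2 and 3.

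A ribosome joins a small subunit, which binds the mRNA and reads its codons, to a large subunit, which forms the peptide bonds. Most ribosomal proteins are present in 1 copy per ribosome and are encoded by single-copy genes, with many processed pseudogenes elsewhere in the genome. Their mRNAs typically begin with a terminal oligopyrimidine (TOP) tract, a C followed by a run of pyrimidines, through which mTORC1 signalling controls their translation.

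Library depth, estimated from the steps between low FPKM values among 1254 genes, lay between 22100000 and 27400000 fragments, with Quinpirole 3 the lowest. Between 52.2% and 60.4% of the 270 to 290 low values used per library lay within 0.1 of a whole fragment. The depth was chosen to bring these same values closest to whole fragments. The 20% that chance gives at a fixed depth is therefore not a matched reference. The FPKM of a library summed to 401769 to 413730 in the Mock group and to 425244 to 437164 in the Quinpirole group, so the total itself was higher in each Quinpirole library. Across 12223 tested genes with an annotated length, shorter genes had the higher fold changes (Spearman rho = -0.475 between exonic length and log2 fold change, a description across genes that share the same 6 libraries). The astrocyte markers Gfap and Slc1a3 lay at 482 to 560 and at 186 to 215 FPKM, whereas the astrocyte glutamate transporter Slc1a2 lay at 5.15 to 8.55 FPKM and the smooth muscle actin Acta2 at 2520 to 2880 FPKM.

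Cytosolic ribosomal protein mRNAs were among the most abundant in these cells. The median of the Mock means over the 83 genes with a mean of at least 1 FPKM was 285 FPKM, against 11.4 FPKM over all 12255 genes tested, and 72 of the 83 lay between 100 and 600 FPKM. From 16 to 20 of them were among the 100 most abundant genes of a library. The median was 274 FPKM for the large subunit (quartiles 156 and 374) and 324 FPKM for the small subunit (quartiles 223 and 418), so the ranges overlapped widely. FPKM is scaled per length, which is the basis for setting genes side by side. However, a median of 47.4% of the 50-base words of a member's transcript also occurs in other genes (range 0% to 95.1%). Which genes these are was not classed, and reads could be divided between genes that share words.

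**Figure D1:**
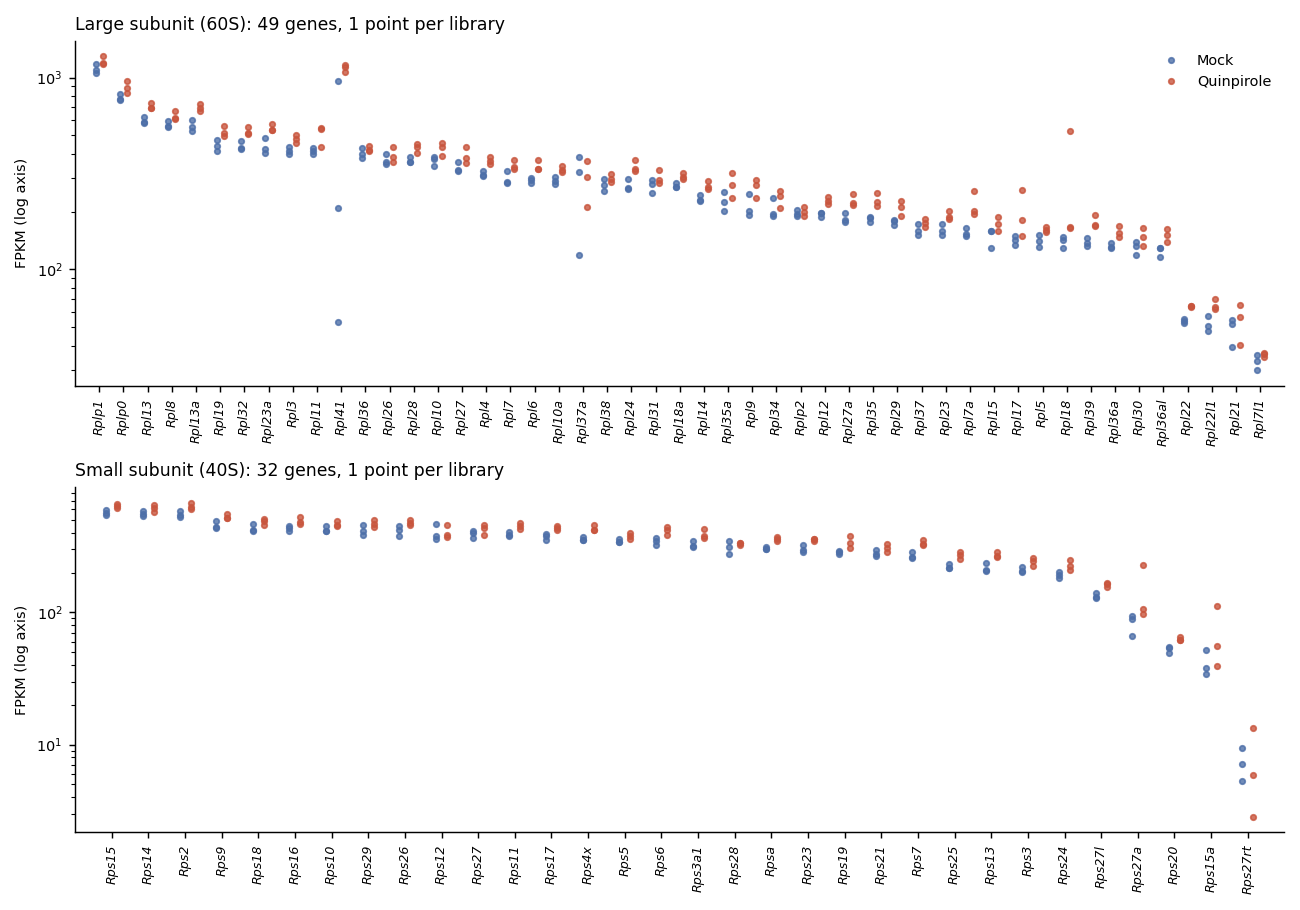
FPKM (log axis) of the tested genes of the large subunit (n = 49, upper panel) and the small subunit (n = 32 shown, lower panel) in each library, ordered by the Mock mean, 1 point per library. Most genes lie between 100 and 600 FPKM with Quinpirole points at or above the Mock points, while Rpl41, Rpl37a and Rpl18 have single libraries far from the rest.

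By the Mock mean, Rplp1 and Rplp0 stood highest. Rpl41, described below, was above Rplp0 in Mock 2 (959 FPKM) and in each Quinpirole library. Rplp1, a protein of the stalk that recruits translation factors, was at 1100, 1060 and 1180 FPKM in the Mock libraries and at 1190, 1290 and 1180 FPKM in the Quinpirole libraries. Rplp0, the protein that anchors the stalk, was at 761, 770 and 822 FPKM against 883, 956 and 831 FPKM. The groups of Rplp0 did not overlap, while those of Rplp1 met at Mock 3 and Quinpirole 3. Next came Rpl13, a large subunit protein, at 599 ± 23.9 FPKM, and Rps15, a small subunit protein near the decoding centre, at 571 ± 25.7 FPKM (Mock, SD, n = 3). The order of Rpl13 and Rps15 did not exceed their spread.

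The lowest of the tested genes were Rps27rt (7.29 ± 2.1 FPKM), Rps19bp1 (22.2 ± 3.31 FPKM), Rpl7l1 (33 ± 3.02 FPKM) and Rps15a (41.4 ± 9.56 FPKM, Mock, SD, n = 3). Rps15a codes for a core protein of the small subunit. The spread of its Mock values, 34.3 to 52.3 FPKM, covered the Mock range of Rpl7l1 in part. FPKM divides by length, and the longest annotated transcript of Rps15a has 5180 bases, against a median of 914 bases over the members. By that length its lowest library held an estimated 4740 fragments, against a median of 6140 over the members. What part of its low FPKM belongs to the length was not tested. Both members below the filter were paralogs known for expression in other tissues. Rpl39l was listed at 0 in 5 libraries and at 0.049 FPKM in Quinpirole 2, and Rpl3l, a paralog typical of striated muscle, at 0.122 FPKM in Mock 1, 0.0398 FPKM in Quinpirole 2, 0.025 FPKM in Quinpirole 3 and 0 in the other libraries.

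Mean levels were higher after quinpirole for 82 of the 83 genes tested, by small amounts, and for 6593 of all 12255 genes tested. The median log2 fold change was 0.22, which is 1.17-fold on the log2(FPKM + 1) scale, against 0.02 over all genes tested. With limma and Benjamini-Hochberg adjustment over all 12255 genes, 34 of the 83 rose (adjusted p under 0.05), 0 fell, and 49 did not pass, where 5.74% of all genes tested rose and 5.18% fell. At an unadjusted limma p under 0.05, 61 were higher and 0 lower, but the share of all genes at that cut was not computed. The 34 rose by 1.15-fold to 1.38-fold (log2 fold change 0.20 to 0.47), with adjusted p from 0.0225 to 0.049 and 18 of the genes that missed it had an adjusted p under 0.1. In bulk RNA, fewer cells of a type and less RNA per cell cannot be told apart.

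The calls depended on single libraries and on how the libraries were scaled. Leaving out Mock 1, Mock 2, Quinpirole 1 or Quinpirole 2 left 0 of the 83 past the threshold, but these fits called only 6, 3, 11 and 25 genes in the whole table, against 1339 with all libraries. Leaving out Quinpirole 3 left 6 members, where 0.701% of all genes rose, and leaving out Mock 3 gave 39, where 5.29% rose. In the 4 fits with 0 limma calls, 49 to 59 members were higher at an unadjusted p under 0.05, and the smallest adjusted p was 0.0546 to 0.0906. The share of all genes at that unadjusted cut was not computed for them. The median log2 fold change stayed between 0.18 and 0.26 in these fits. After a correction for exonic length 12 of the 83 were called, where 2.09% of all genes rose, and the median was 0.14. After quantile normalization 7 were called, where 2.31% of all genes rose, and the median was 0.10. With the length of the longest transcript in place of exonic length, an alternative chosen after seeing the data, 5 were called, where 0.851% of all genes rose, and the median was 0.09.

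**Figure D2:**
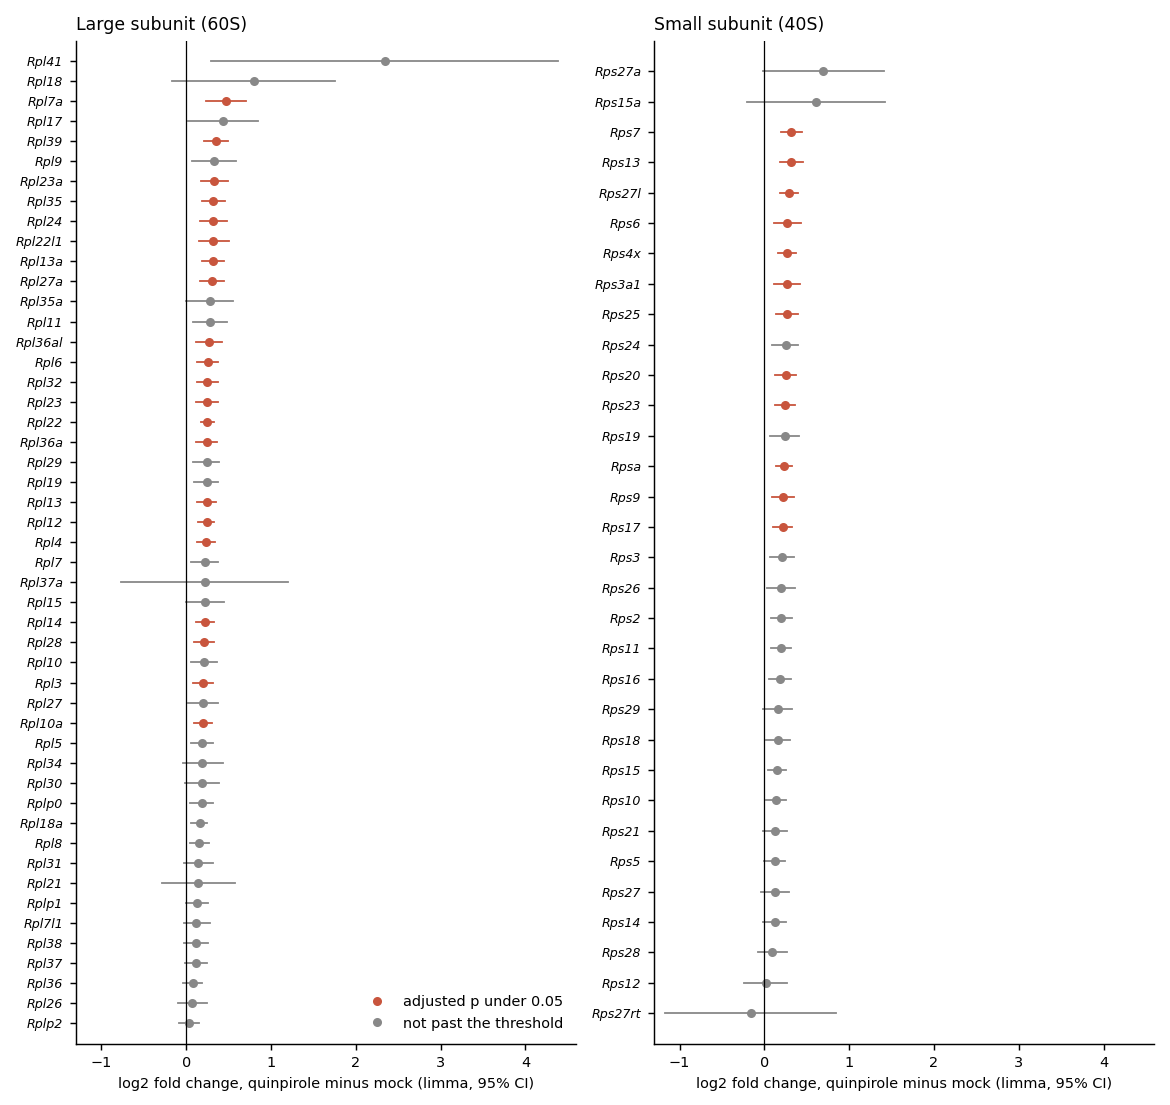
The log2 fold change from Mock to Quinpirole of each tested gene of the large (n = 49) and the small subunit (n = 32 shown), with its 95% confidence interval from limma (3 libraries per group). Red points are the 33 shown genes with an adjusted p under 0.05, and nearly all genes lie between 0 and 0.5, with Rpl41 at 2.34 the farthest and the widest.

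Taken by library rather than by fit, 56 of the 83 genes had every Quinpirole library above every Mock library, where 20% of all genes tested did, and 0 had the reverse. Mock 3 was the highest Mock library for 73 genes and Quinpirole 2 the highest Quinpirole library for 76. Of the 27 genes whose groups overlapped, 19 overlapped through Mock 3 alone and 12 through Quinpirole 3 alone, some of them through that same pair of libraries. The median deviation of the members from their gene means was -0.14, -0.15 and -0.03 (log2) in the Mock libraries and 0.09, 0.19 and 0.06 in the Quinpirole libraries.

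**Figure D3:**
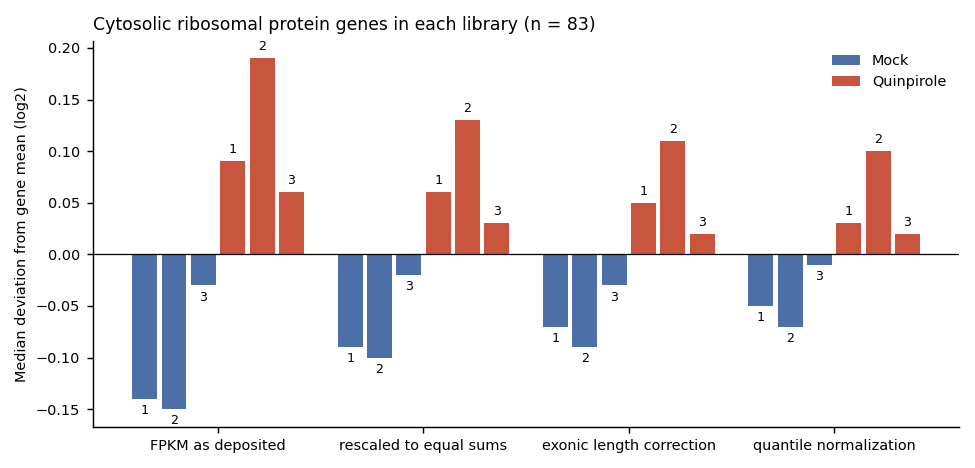
Median deviation of the 83 genes from their own mean over the 6 libraries (log2), by library (replicate number on each bar), for FPKM as deposited, FPKM rescaled to equal library sums, after the exonic length correction and after quantile normalization. In each scaling all 3 Mock bars are below 0 and all 3 Quinpirole bars above, and the gap between Mock 3 and Quinpirole 3 shrinks from -0.03 against 0.06 to -0.01 against 0.02.

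As a share of the FPKM sum of a library, the 85 genes made up 5.88%, 6.05% and 6.25% in the Mock libraries and 6.72%, 7.09% and 6.59% in the Quinpirole libraries. Rpl41, which varied most, was responsible for part of this. Without it the shares were 5.86%, 5.81% and 6.2% against 6.47%, 6.83% and 6.33%. The groups did not overlap in either count.

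The length trend of these libraries touches this family, whose longest transcripts have a median of 914 bases against 3157 bases over all genes tested. The 2445 genes with the shortest exonic length, 58 of them members, had a median log2 fold change of 0.12, and of 0.01 after the length correction. Among the 83 members the relation did not run the same way (Spearman rho = 0.16 with exonic length and 0.259 with the longest transcript). After the correction 73 of the 83 kept a fold change above 0, where 6297 of all 12223 genes lay above 0. What part of the members' difference belongs to the length trend was not tested.

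**Figure D4:**
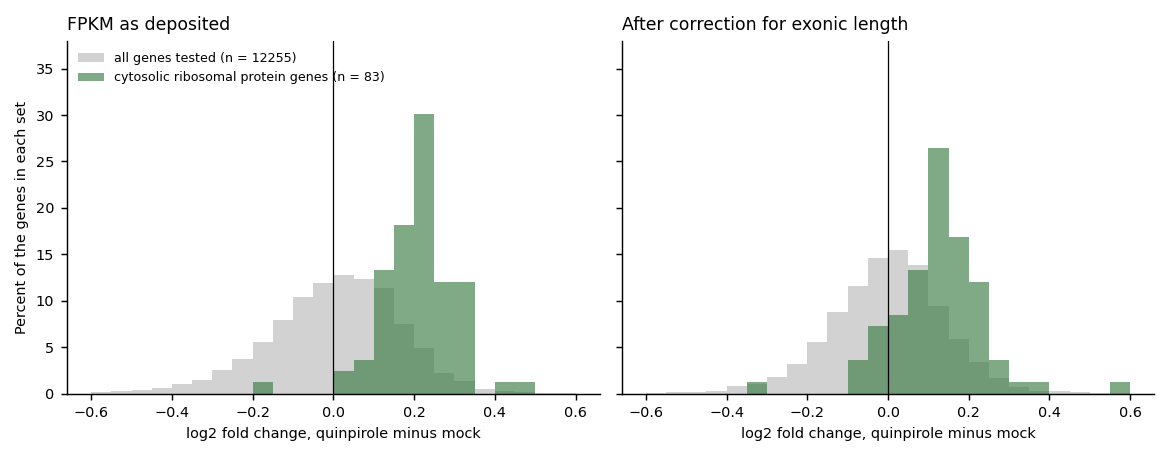
Distribution of log2 fold changes (bins of 0.05, percent of each set) for all genes tested and for the 83 cytosolic ribosomal protein genes, for FPKM as deposited (left) and after the exonic length correction (right). The members' median moves from 0.22 to 0.14 while that of all genes goes from 0.02 to 0.01. The plotted range leaves out 4 members on the left and 3 on the right.

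Markers of other cell types were read in the same libraries. Of the 10 astrocyte markers, 0 rose and 2 fell (Slc1a2 and Atp1b2), and their summed FPKM was 1490 to 1650 in Mock and 1480 to 1510 in Quinpirole libraries. The summed FPKM did not overlap for microglia (8 markers, 501 to 518 against 531 to 569), oligodendrocytes (8 markers, 422 to 438 against 446 to 465), neurons (8 markers, 70.8 to 76.2 against 82.7 to 89.3), choroid plexus (3 markers, 27.5 to 28.5 against 28.7 to 30) and mural cells (4 markers, 2550 to 2720 against 2730 to 2900, nearly all Acta2). Among them Olig1 and Stmn2 rose, whereas defining neuronal markers were near 0 (Rbfox3 at 0.0495 FPKM or lower, Snap25 at 0.0773 FPKM or lower), as was Mog of oligodendrocytes (0.0639 FPKM or lower). The sums overlapped for endothelial (53.2 to 54.5 against 51.6 to 54.1), ependymal (145 to 164 against 145 to 154) and proliferating or immature cell markers (40.1 to 46.4 against 41.9 to 47.6), and the only erythrocyte marker of 3 in the table stayed at 0.0106 FPKM or lower. The part of these cell types in the ribosomal protein result was not tested.

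Among genes past the threshold, 5 of those with the smallest p are given here. A small p goes with tight replicates and separate groups, so these traits follow from the choice and are not a further result. Rpl22, a large subunit protein that is dispensable for translation in many cells, was at 52.5, 53.5 and 55.2 FPKM in the Mock and at 64.3, 64.4 and 63.4 FPKM in the Quinpirole libraries. Its groups lay well apart (log2 fold change 0.25 ± 0.04, SE, limma adjusted p = 0.0225). Rps27l, the paralog of Rps27, was at 130, 129 and 139 against 156, 168 and 164 FPKM (0.29 ± 0.05, limma adjusted p = 0.0236). Every Quinpirole library again exceeded every Mock library.

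Rps7, a small subunit protein also known for binding the p53 regulator MDM2, was at 259, 261 and 285 FPKM in the Mock and at 331, 350 and 324 FPKM in the Quinpirole libraries, with no overlap (log2 fold change 0.32 ± 0.05, SE, limma adjusted p = 0.024). Rps4x, the X-linked copy of S4, was at 351, 355 and 370 against 422, 456 and 420 FPKM (0.27 ± 0.04, limma adjusted p = 0.0247). Rpsa, a small subunit protein that is also the laminin receptor precursor, was at 302, 300 and 312 against 357, 373 and 345 FPKM (0.23 ± 0.04, limma adjusted p = 0.0251). In all 3 the lowest Quinpirole library lay above the highest Mock library, and Quinpirole 2 was the highest.

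These 5 genes passed both after the exonic length correction and after quantile normalization. The other genes called under the length correction were Rpl12, Rpl13, Rpl13a, Rpl23a, Rpl27a, Rpl39 and Rps13, and under quantile normalization Rpl27a and Rpl39, names read after their values were seen. Of the members described below as risen, Rpl3, Rpl4, Rpl10a, Rpl14, Rpl22l1, Rpl28, Rpl35, Rpl36a, Rpl36al, Rps6 and Rps23 passed neither after the length correction nor after quantile normalization. Under the correction on the longest transcript the 5 called were Rpl13a, Rpl22, Rps13, Rps7 and Rpsa. Without Quinpirole 3 the 6 called included Rpl12, Rpl22, Rpl29, Rps7 and Rpsa.

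Both subunits took part. Of the 49 tested genes of the large subunit, 49 had a higher mean and 21 rose (median log2 fold change 0.23), and of the 33 of the small subunit 32 had a higher mean and 13 rose (0.22). After the length correction the medians were 0.14 and 0.12. The difference between subunits was not tested.

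Within the large subunit, the stalk that recruits elongation factors held 4 members, of which 1 rose (median log2 fold change 0.16). The riser was Rpl12, at the stalk base, with 197, 188 and 197 FPKM in the Mock and 228, 238 and 220 FPKM in the Quinpirole libraries (0.24 ± 0.04, limma adjusted p = 0.0251), and its groups did not overlap. The other members did not pass, with log2 fold changes of 0.18 ± 0.06 for Rplp0, 0.13 ± 0.06 for Rplp1 and 0.03 ± 0.05 for Rplp2 (limma adjusted p = 0.0886, 0.163 and 0.736). Rplp2, the dimer partner of Rplp1, was at 194, 189 and 204 FPKM in the Mock and 200, 211 and 189 FPKM in the Quinpirole libraries, which overlap. The signs of Rplp0, Rplp1 and Rplp2 turned below 0 under quantile normalization (-0.00, -0.04 and -0.09), and those of Rplp1 and Rplp2 also under the length correction (-0.01 and -0.06).

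Rpl5 and Rpl11, which assemble with 5S rRNA and bind MDM2 when ribosome assembly is disturbed, did not pass. Rpl11 was at 412, 401 and 431 FPKM in the Mock and at 436, 545 and 539 FPKM in the Quinpirole libraries (log2 fold change 0.28 ± 0.09, limma adjusted p = 0.0727). Rpl5 was at 131, 140 and 152 against 160, 166 and 157 FPKM (0.19 ± 0.06, adjusted p = 0.065). In both genes every Quinpirole library was above every Mock library.

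Rpl10a, of the L1 stalk that guides spent tRNA out of the ribosome, rose from 290, 278 and 302 FPKM to 329, 347 and 322 FPKM with no overlap (log2 fold change 0.20 ± 0.05, limma adjusted p = 0.041). Near the peptidyl transferase centre 1 of 3 genes rose, Rpl3 (401, 416 and 437 against 478, 502 and 456 FPKM, 0.20 ± 0.05, adjusted p = 0.049). Rpl10, which joins the subunit late in its assembly, was at 346, 375 and 386 against 437, 454 and 391 FPKM and did not pass (0.21 ± 0.07, adjusted p = 0.079). Of 8 genes lining the peptide tunnel and its exit, 4 rose (median 0.28), Rpl4, Rpl23a, Rpl35 and Rpl39. Rpl26, also at the exit, had one of the 3 smallest differences of all members, 356, 365 and 401 against 385, 435 and 361 FPKM, overlapping (0.07 ± 0.08, adjusted p = 0.543).

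In the small subunit, 1 of 4 genes at the mRNA entry and decoding centre rose, Rps23 (median of the 4, 0.21), 0 of 4 at the mRNA exit (median 0.12) and 0 of 3 at the beak (median 0.14). Rps15, of the first group, was at 567, 547 and 598 FPKM in the Mock and 611, 656 and 637 FPKM in the Quinpirole libraries, which did not overlap (0.15 ± 0.05, limma adjusted p = 0.0741), and its sign was below 0 under quantile normalization (-0.02). Rps12, of the beak, was at 377, 360 and 464 against 372, 455 and 386 FPKM. These values overlapped fully (0.02 ± 0.11, adjusted p = 0.92), with Mock 3 the highest of all 6. These groups hold 8 genes or fewer and differences between them were not tested.

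Rps6, the ribosomal protein phosphorylated by S6 kinases downstream of mTORC1, rose from 324, 344 and 367 FPKM in the Mock to 423, 443 and 383 FPKM in the Quinpirole libraries (log2 fold change 0.27 ± 0.07, SE, limma adjusted p = 0.0459). The groups did not overlap, with Mock 3 and Quinpirole 3 closest. After the length correction its log2 fold change was 0.16 (adjusted p = 0.0994).

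Several ribosomal proteins have symbols outside the naming rule. Fau, whose precursor releases S30, rose from 430, 434 and 467 FPKM to 483, 527 and 525 FPKM with no overlap (log2 fold change 0.21 ± 0.05, limma adjusted p = 0.0459). This call was lost after the length correction (0.07, adjusted p = 0.27) and after quantile normalization (0.04, adjusted p = 0.532). Rack1, a scaffold on the small subunit, was at 298, 309 and 327 against 331, 354 and 317 FPKM (0.10 ± 0.05, adjusted p = 0.239). The groups of Rack1 overlapped.

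Paralogs of ribosomal proteins were compared with their partners by the log2 ratio of their FPKM in each library (pseudocount 0.1), which cancels library scaling. Among the 5 pairs compared, the smallest two-sided exact permutation p that 3 libraries against 3 allow is 0.1, so no pair could reach 0.05. The pairs differ in how alike they are. Coding sequences, aligned from start to stop codon, were identical at 68.2% of positions for Rpl22l1 and Rpl22, 54% for Rpl7l1 and Rpl7, 87.9% for Rpl36al and Rpl36a, 76.1% for Rps27l and Rps27, 85.3% for Rpl39l and Rpl39 and 73.3% for Rpl3l and Rpl3.

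Rpl22l1, known for expression in place of Rpl22 in some tissues, was nearly as abundant as Rpl22 in these astrocytes. It was at 47.6, 50.9 and 57.3 FPKM in the Mock and at 63.7, 69.8 and 61.8 FPKM in the Quinpirole libraries, with no overlap (log2 fold change 0.32 ± 0.08, limma adjusted p = 0.0411). The log2 ratio of Rpl22l1 to Rpl22 was -0.14, -0.07 and 0.05 against -0.01, 0.12 and -0.04. It overlapped between the groups (difference 0.08, exact permutation p = 0.4, adjusted 0.5), so both paralogs rose with no shift between them detectable in 3 libraries against 3.

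Rps27l and its partner Rps27 were the pair whose ratio separated by group. Rps27, a zinc-finger protein of the small subunit, was at 398, 365 and 412 FPKM in the Mock and at 433, 460 and 388 FPKM in the Quinpirole libraries, which overlap (log2 fold change 0.12 ± 0.07, limma adjusted p = 0.28). The log2 ratio of Rps27l to Rps27 was -1.62, -1.50 and -1.56 in the Mock and -1.47, -1.45 and -1.24 in the Quinpirole libraries, a difference of 0.17. The groups did not overlap, and the exact permutation p was 0.1, the smallest possible (adjusted 0.5). The coding sequences (GENCODE M21, GRCm38) are both 255 bases and differ at 61, shown in capitals in Rps27l. Rps27 lies at chr3:90212522-90213651 on the minus strand and Rps27l at chr9:66946086-66949516 on the plus strand.
Rps27: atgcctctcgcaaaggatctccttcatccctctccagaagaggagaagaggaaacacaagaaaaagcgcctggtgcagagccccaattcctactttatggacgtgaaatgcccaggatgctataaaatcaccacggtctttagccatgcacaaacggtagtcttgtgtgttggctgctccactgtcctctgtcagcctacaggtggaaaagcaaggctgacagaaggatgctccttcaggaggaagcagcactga
Rps27l: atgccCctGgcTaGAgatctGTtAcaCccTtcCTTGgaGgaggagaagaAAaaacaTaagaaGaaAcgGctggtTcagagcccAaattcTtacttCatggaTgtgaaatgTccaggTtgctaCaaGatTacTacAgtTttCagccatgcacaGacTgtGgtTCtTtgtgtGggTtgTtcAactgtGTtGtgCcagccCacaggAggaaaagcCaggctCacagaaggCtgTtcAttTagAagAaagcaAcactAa

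Another copy, Rps27rt, is a gene of 1 exon at chr9:114982366-114982739 on the minus strand whose coding sequence is identical to that of Rps27 at all 255 bases, and 91.1% of the 50-base words of its transcript occur in other genes. It was the only member with a lower mean fold change on the log2 scale (-0.16 ± 0.43, limma adjusted p = 0.829). Its values were 5.28, 7.1 and 9.48 FPKM in the Mock and 2.86, 5.89 and 13.3 FPKM in the Quinpirole libraries, which overlapped fully, and the sign turned to 0.29 without Quinpirole 1 and to 0.02 without Mock 3. About 28.5 fragments were estimated for its lowest library, so counting error alone is 18.7%.

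Rpl36al and Rpl36a, copies on different chromosomes, were at 129, 116 and 130 against 152, 162 and 139 FPKM and at 130, 131 and 138 against 155, 169 and 148 FPKM. Both rose (log2 fold change 0.27 ± 0.07, limma adjusted p = 0.0459, and 0.24 ± 0.05, adjusted p = 0.0383) with no overlap, and their ratio did not separate the groups (difference 0.03, exact permutation p = 0.8). Rpl7l1, a factor of ribosome assembly related to L7, was at 29.8, 33.2 and 35.8 against 35.1, 36.1 and 36.6 FPKM and overlapped (0.12 ± 0.07, adjusted p = 0.235), while Rpl7 was at 287, 283 and 327 against 340, 372 and 332 FPKM (0.22 ± 0.07, adjusted p = 0.076). The ratio of Rpl7l1 to Rpl7 differed by -0.09 (exact permutation p = 0.4). The ratio of Rps4l, at 33.5 to 40.2 FPKM, to Rps4x differed by -0.16 (exact permutation p = 0.2).

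Rpl39, a short protein of the tunnel exit, rose from 138, 132 and 146 FPKM to 169, 192 and 171 FPKM (log2 fold change 0.35 ± 0.06, SE, limma adjusted p = 0.0251), and its paralog Rpl39l, known from testis, was at or near 0. The groups of Rpl39 did not overlap. The coding sequences of 156 bases (GENCODE M21, GRCm38) are shown with the 23 bases that differ in capitals in Rpl39l. Rpl39 lies at chrX:37082520-37085402 on the minus strand and Rpl39l at chr16:10170226-10174911 on the plus strand.
Rpl39: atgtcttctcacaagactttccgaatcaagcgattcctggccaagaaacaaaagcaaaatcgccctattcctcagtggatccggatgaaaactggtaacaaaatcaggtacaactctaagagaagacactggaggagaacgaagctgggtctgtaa
Rpl39l: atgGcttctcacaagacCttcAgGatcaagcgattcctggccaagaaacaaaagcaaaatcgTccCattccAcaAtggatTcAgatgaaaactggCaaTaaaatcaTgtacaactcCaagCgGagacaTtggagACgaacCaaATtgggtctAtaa

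A few members had replicates that did not agree. For 8 of the 83, the highest library of a group was over 1.5 times the lowest (Rpl17, Rpl18, Rpl21, Rpl37a, Rpl41, Rps15a, Rps27a and Rps27rt, singled out after their values were seen), where the median of that ratio over the members was 1.14. Of these 8, 0 passed the threshold. Over the other 75, log2 fold changes ranged from 0.02 to 0.47 with quartiles of 0.16 and 0.27, and 34 were called.

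Rpl41, the shortest ribosomal protein, had the largest fold change and the widest spread. It was at 53.2, 959 and 208 FPKM in the Mock libraries and at 1070, 1160 and 1130 FPKM in the Quinpirole libraries. The 3 Quinpirole libraries agreed closely, and only the Mock libraries varied, by 18 times, with Mock 2 near the Quinpirole level. The log2 fold change of 2.34 ± 0.88 did not pass (limma adjusted p = 0.12) and lay between 1.33 and 3.40 when single libraries were left out. Its coding sequence (GENCODE M21, GRCm38, gene at chr10:128548114-128549305, minus strand) is shown whole because at 78 bases it is the shortest of the coding sequences compared here.
Rpl41: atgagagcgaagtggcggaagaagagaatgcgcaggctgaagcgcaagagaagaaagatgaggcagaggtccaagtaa

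In 3 of these genes a single Quinpirole library stood high. Rpl18 was at 129, 143 and 148 FPKM in the Mock and at 528, 166 and 164 FPKM in the Quinpirole libraries, so that Quinpirole 1 alone was over 3 times the rest (log2 fold change 0.80 ± 0.41, limma adjusted p = 0.231, and 0.24 without that library). Rps27a, the ubiquitin fusion that releases S27a, was at 89, 94.7 and 66.8 against 107, 229 and 97.8 FPKM, with Quinpirole 2 high (0.69 ± 0.31, adjusted p = 0.169). Rps15a was at 34.3, 52.3 and 37.7 against 39.3, 55.8 and 112 FPKM, with Quinpirole 3 high and the groups overlapping (0.61 ± 0.35, adjusted p = 0.273). The high library was a different one in each gene. Rpl17, of the tunnel exit, was at 142, 134 and 150 against 182, 260 and 149 FPKM, and Rpl21 at 54.2, 39.2 and 51.9 against 56.4, 65 and 40.4 FPKM. Rpl37a had its outlying library among the Mock samples, at 119 FPKM in Mock 1 beside 321 and 386 FPKM, against 304, 366 and 211 FPKM. The groups of these last genes overlapped.

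**Figure D5:**
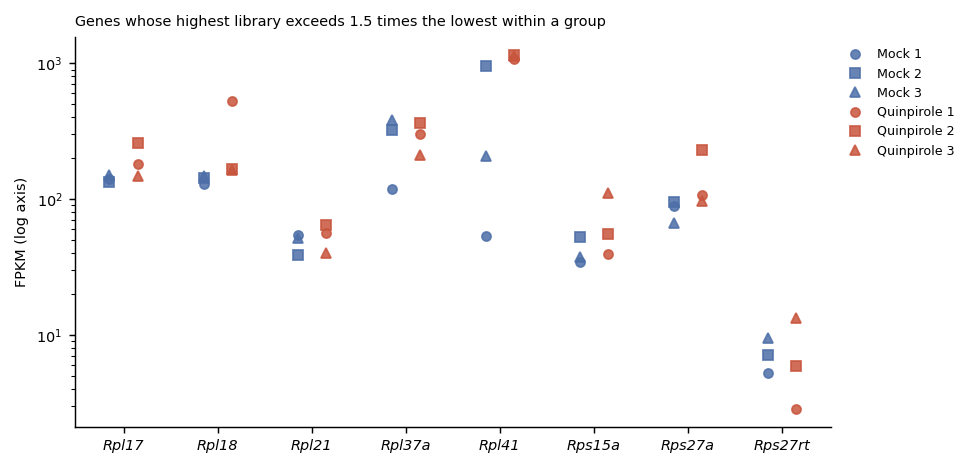
FPKM (log axis) of the 8 genes whose highest library exceeded the lowest of the same group by more than 1.5 times, with 1 symbol per replicate number and 3 libraries per group. Rpl41 spans 53.2 to 959 FPKM in the Mock libraries, and Rpl18 has 528 FPKM in Quinpirole 1 against 129 to 166 FPKM elsewhere.

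Of the 38 members with at least 50% of their words found in other genes, 19 rose (median log2 fold change 0.23), and of the 45 with fewer, 15 rose (0.22), while 2 and 6 of the 8 genes with wide replicates fell in these classes. Counting error was also small. The median member had an estimated 6140 fragments in its lowest library, a counting error of 1.28%, against a coefficient of variation between libraries of 5.68% in the Mock and 5.64% in the Quinpirole group.

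Pyrimidine tracts were searched at the starts of these genes. RefSeq promoter windows (GRCm38.p6, 250 bases before to 50 after the annotated start) matched 65 of the 85 genes, with 77 starts. A C followed by at least 4 pyrimidines began within 5 bases of the start in 41.6% of these starts and in 18.3% of all 32851, and exactly at the start in 18.2% against 2.51%. For mitochondrial ribosomal proteins, which are not TOP mRNAs, the shares were 22.7% and 0% of 75 starts. The tract exactly at the start was present at 12.9% of 31 starts of genes that rose and at 23.3% of 43 starts of tested genes that did not pass. Shown are 15 bases before and 15 from the start for 4 genes that rose (Rps6, Rpl28, Rpl35 and Rpl14), for Rps27 and Rplp2, which did not pass, and for Rpl22 and Rps7, which rose and have no tract at the annotated start. Capitals mark the C and its pyrimidine run.
Rps6 (chr4:86857353-86857382, minus strand): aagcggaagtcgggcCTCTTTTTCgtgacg
Rpl28 (chr7:4792950-4792979, plus strand): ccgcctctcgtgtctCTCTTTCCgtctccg
Rpl35 (chr2:39005117-39005146, minus strand): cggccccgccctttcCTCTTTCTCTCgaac
Rpl14 (chr9:120571502-120571531, plus strand): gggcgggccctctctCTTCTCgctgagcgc
Rps27 (chr3:90213634-90213663, minus strand): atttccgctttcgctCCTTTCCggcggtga
Rplp2 (chr7:141447636-141447665, plus strand): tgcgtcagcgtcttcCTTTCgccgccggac
Rpl22 (chr4:152325711-152325740, plus strand): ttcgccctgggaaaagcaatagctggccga
Rps7 (chr12:28635939-28635968, minus strand): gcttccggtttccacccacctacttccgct

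A pair of motifs of housekeeping promoters was searched on both strands of the same windows of 300 bases, chosen after the sequences were seen. CCGGAAG, the core bound by ETS factors, occurred in 35.1% of the 77 members' windows, in 34.7% of the 75 windows of mitochondrial ribosomal proteins and in 8.86% of all windows. AAGATGGC, the core bound by YY1, occurred in 10.4%, 16% and 2.75%. The windows of genes that rose held them in 32.3% and 6.45%, and those of tested genes that did not pass in 37.2% and 14%. A match describes letters in a window and is not a measured site.

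Genes outside the cytosolic ribosome were read in the same fit, where 5.74% of all genes tested rose and 5.18% fell. Of 77 mitochondrial ribosomal protein genes tested, 20 rose and 0 fell (median log2 fold change 0.17, and 0.09 after the length correction). After the length correction 3 of the 77 were called higher, where 2.09% of all genes rose. After quantile normalization 6 were called higher, where 2.31% of all genes rose. Their median was then 0.14, against 0.10 for the cytosolic members. Of 51 factors of ribosome biogenesis, 4 rose and 1 fell, with a median of 0.09. The risers were Gnl3 (nucleostemin, 10.1 to 12.8 FPKM, 0.31 ± 0.06), Nhp2, a snoRNP protein (29.1 to 34.7 FPKM, 0.25 ± 0.06), Gnl2, a nucleolar GTPase (13.9 to 16.6 FPKM, 0.24 ± 0.04), and Brix1, of 60S assembly (7.37 to 8.88 FPKM, 0.24 ± 0.06). Mdn1, a very large AAA ATPase that strips assembly factors from 60S particles, fell from 2.75 to 1.69 FPKM (-0.48 ± 0.09, limma adjusted p = 0.0251). After the length correction Gnl3 and Gnl2 still passed, while the calls of Nhp2 (0.12), Brix1 (0.17) and Mdn1 (-0.22, adjusted p = 0.0988) were lost. Ncl, which had not passed before (0.09, adjusted p = 0.173), was then called (0.19, adjusted p = 0.0464). After quantile normalization Gnl3, Gnl2, Brix1 (0.27, adjusted p = 0.0427) and Mdn1 (-0.45, adjusted p = 0.0321) passed, and Nhp2 did not (0.20, adjusted p = 0.0619).

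Of 18 other mRNAs of the TOP class, including translation factors, 7 rose and 0 fell (median log2 fold change 0.14), where 5.74% and 5.18% of all genes tested did. After the length correction 2 were called, Eef1g and Eif3e (median 0.08), and after quantile normalization 0 were called higher (median 0.03). The 7 were the elongation factor subunits Eef1g (172 to 199 FPKM, 0.21 ± 0.03) and Eef1b2 (85.1 to 97.5 FPKM, 0.19 ± 0.04), the initiation factor subunits Eif3e (50.6 to 57.7 FPKM, 0.19 ± 0.04) and Eif3h (135 to 149 FPKM, 0.14 ± 0.03), Tpt1 (622 to 725 FPKM, 0.22 ± 0.05), Nap1l1 (61.3 to 69 FPKM, 0.17 ± 0.04) and Fau. Of 14 regulators around mTORC1 and TOP translation, 2 rose and 4 fell (median 0.03). The risers were Eif4ebp1, an inhibitor of cap-dependent translation (59.5 to 75.3 FPKM, 0.33 ± 0.04, limma adjusted p = 0.0225), and Rheb, the GTPase that activates mTORC1 (48.9 to 58 FPKM, 0.24 ± 0.05, adjusted p = 0.0322). The kinase Mtor (16.3 to 13.5 FPKM, -0.25 ± 0.06, adjusted p = 0.0447), its inhibitors Tsc1 (-0.24 ± 0.06, adjusted p = 0.0481) and Tsc2 (-0.19 ± 0.05, adjusted p = 0.0459) and the TOP-binding protein Larp1 (-0.19 ± 0.05, adjusted p = 0.0434) fell. With the length correction the log2 fold changes of Mtor, Tsc1, Tsc2 and Larp1 were -0.15, -0.11, -0.10 and -0.15. None of the 4 then passed (adjusted p from 0.0793 to 0.246), whereas Eif4ebp1 and Rheb did. After quantile normalization Eif4ebp1 (0.27, adjusted p = 0.0242) and Larp1 (-0.20, adjusted p = 0.0485) passed. Rheb (0.19, adjusted p = 0.0508), Mtor, Tsc1 and Tsc2 then did not (adjusted p from 0.0503 to 0.0637).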

How the data were processed

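The authors mapped paired-end reads to mouse GRCm38 with TopHat2 (version not given in the sources used here), kept reads with at most 1 mismatch and deposited gene-level FPKM, 1 table per library. The program that computed FPKM was not given in the sources used here. Symbols and lengths came from GENCODE M21 (GRCm38); the authors' own annotation may differ. Tests used limma 3.58.1 in R 4.3.3 (lmFit, eBayes with trend, two-sided) on log2(FPKM + 1) for genes with a mean of at least 1 FPKM over the 6 libraries, with Benjamini-Hochberg adjustment over all of them at 0.05. Fold changes are on that scale and understate the change of low genes. The length correction subtracted a loess fit (span 0.3) of each library's deviation from the gene mean on log2 exonic length. It would also take out any real difference that follows length. The fit and the depth estimate were tested on simulated data. The alternatives were other pseudocounts, filters, scalings, length and GC corrections, variance models, a replicate block and the omission of each library.

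The members and the gene lists were chosen with earlier results of these data known. Genes named singly are the paralog pairs, the 6 with the smallest p past the threshold, those below the filter or with a fold change below 0, the 4 highest and 4 lowest in the Mock group, the stalk and 5S groups, Rps6, Rpsa, Fau, Rack1 and the 3 largest and 3 smallest changes. Other names were chosen after their values were seen or are members of a list that was counted. Single values of some genes that these rules name are not reported here. The labels do not say whether the replicate numbers pair the libraries. Correlations of deviations between same-numbered libraries were 0.026, -0.066 and -0.10, and those between libraries of different number ran from -0.097 to 0.15. With 3 libraries per group these values cannot decide whether the libraries are paired.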

Additional observations from a re-analysis of the deposited data

How the results depend on the processing

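Members past the threshold numbered 34 of 83, and 12 when every expressed gene was tested (no filter), 7 after quantile normalization, 12 with the length correction, 5 with the correction on the longest transcript, 12 with length and GC corrections together and 12 with eBayes without trend. Of all genes tested, 5.74% rose in the main fit, 1.91% with no filter and 2.31% after quantile normalization. The share was 2.09% with the length correction and 0.851% with the correction on the longest transcript. With length and GC corrections together it was 1.6%, and without trend 2.39%. Leaving out 1 library gave 0 to 39, with 0 without Mock 1, Mock 2, Quinpirole 1 or Quinpirole 2 and 6 without Quinpirole 3. Over all genes 6, 3, 11, 25 and 214 were called without Mock 1, Mock 2, Quinpirole 1, Quinpirole 2 and Quinpirole 3, against 1339 with all libraries and 714 without trend. The replicate block gave 0 members and 2 genes in all, and 0 of both with the length correction. In these fits 58 and 42 members were higher at an unadjusted limma p under 0.05, a cut whose share over all genes was not computed. Whether the replicate numbers pair these libraries is not known. Members with every Quinpirole library above every Mock library numbered 56, where 20% of all genes tested did so. They numbered 35 with quantile normalization and 37 with the correction on the longest transcript, where the share over all genes was not computed. No member fell in any alternative run (limma, 0 or 1 lower at an unadjusted p under 0.05).

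The median log2 fold change of 0.22 became 0.14 with FPKM rescaled to equal sums (TPM), 0.15 with ribosomal protein genes left out of that sum, 0.10 with quantile normalization, 0.14 with the length correction (also with the replicate block), 0.13 with length and GC corrections and 0.09 with the longest transcript. It stayed above 0 throughout.

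Over 756 alternative fold changes of the 36 named genes tested, 538 kept direction and side of the threshold, 175 lost the threshold, 4 gained it and 39 changed sign. The sign changes were all in genes not past the threshold. Under quantile normalization they were Rps27 (-0.00), Rps15 (-0.02), Rplp0 (-0.00), Rplp1 (-0.04), Rplp2 (-0.09), Rps12 (-0.11), Rpl26 (-0.05) and Rack1 (-0.03). Under the length correction, and equally with the replicate block beside it, they were Rps27 (-0.01), Rplp1 (-0.01), Rplp2 (-0.06), Rps12 (-0.07) and Rpl26 (-0.04). Under the correction on the longest transcript they were Rps27 (-0.04), Rplp1 (-0.03), Rplp2 (-0.11), Rps12 (-0.13), Rpl26 (-0.08) and Rack1 (-0.00). With length and GC corrections they were Rplp2 (-0.05), Rps12 (-0.06) and Rpl26 (-0.01), with TPM Rplp2 (-0.05), Rps12 (-0.06) and Rpl26 (-0.01), and with TPM without ribosomal protein genes Rplp2 (-0.04) and Rps12 (-0.05). When 1 library was left out, Rps27rt ranged from -0.65 to 0.29, Rplp2 from -0.01 to 0.07, Rps12 from -0.07 to 0.13 and Rpl26 from -0.00 to 0.13, and the ratio of Rpl36al to Rpl36a reached -0.01 without Mock 2. The cause of these changes was not tested. The deposited values hold no counts, so no count test was run, and the depth of a library is an estimate.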
